A study of Mus musculus with 6 samples.

Results

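A set of 10 genes of bone morphogenetic protein (BMP) signalling were followed through RNA sequencing of knee cartilage from miR-455 null and wild-type (WT) mice. They comprised the ligands Bmp2, Bmp4 and Bmp6, the type I receptors Bmpr1a and Acvr1, the type II receptors Bmpr2, Acvr2a and Acvr2b, the co-receptor Hjv and the antagonist Chrdl1. They were chosen by name and function, with earlier results of these data known. They are 10 of the 36711 gene identifiers in the data, of which 23176 were above 0 in at least 1 library. The comparison had 3 libraries from miR-455 null mice and 3 from WT mice, all aged 3 months and of the C57/Bl6 strain, with no treatment named. The null allele, made by CRISPR-Cas9 editing, is a small deletion in the miR-455 gene that leaves neither mature strand whole. For each library, cartilage dissected from the tibia and femur of 2 knees was pooled. Neither the sex of the mice nor whether each library came from a separate animal was given in the sources used here, so any p-value refers to the variation among these 6 libraries.

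BMPs are secreted dimers of the transforming growth factor β superfamily. A ligand brings type II receptor kinases together with type I receptor kinases, the type II receptor phosphorylates the type I receptor, and the type I receptor phosphorylates the BMP-responsive SMAD proteins, which enter the nucleus with Smad4 and induce genes such as those of the Id family. In cartilage the pathway drives chondrocyte differentiation, matrix synthesis and endochondral ossification, and extracellular antagonists hold the ligands away from their receptors.

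The microRNA that is deleted lies in an intron of Col27a1, a collagen gene of cartilage, between exons 10 and 11 (chr4:63254742-63257059, plus strand, GRCm38). Both mature sequences are shown because their seeds (bases 2 to 8, in capitals), the stretch through which a microRNA recognises its targets, were searched for in the 3′UTRs of the 10 genes. The sequences are those of RefSeq for GRCm38.p6, at chr4:63256867-63256888 for the 5p form and chr4:63256904-63256924 for the 3p form.
mmu-miR-455-5p: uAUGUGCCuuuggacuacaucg
mmu-miR-455-3p: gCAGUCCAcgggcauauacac
Col27a1, the host gene, had abundances of 2.72, 3.48 and 2.07 in null libraries 1 to 3, against 1.76, 2.97 and 2.76 in WT libraries 1 to 3. The groups overlapped. The mature microRNAs themselves were not analysed here, so the deletion could not be checked from these values.

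A seed match of 7 bases was found in the annotated 3′UTRs of 3 of the 10 genes for the 3p form, of 3 for the 5p form and of 5 for either form. The words searched on the transcript strand were TGGACTG and GGACTGA (3p form) and GGCACAT and GCACATA (5p form), each being the complement of seed bases 2 to 8, or of bases 2 to 7 followed by A. Across 21022 annotated genes, the longest 3′UTR held such a match for the 3p form in 17.7%, for the 5p form in 12.9% and for either form in 26.7%. The longest 3′UTRs of the 5 genes with a match had 520 to 3810 bases, against a median of 960 over the annotated genes. The sites are given on the transcript strand with 10 flanking bases on each side, because they mark which of the 10 genes carry a sequence that the deleted microRNAs could pair with. Capitals mark the match. The Chrdl1 sites are listed from the 3′UTRs of different annotated transcripts.
Bmpr1a, miR-455-3p, chr14:34413769-34413795 (minus strand): tccatagactTGGACTGttttccccca
Acvr2a, miR-455-3p, chr2:48902343-48902369 (plus strand): aactgccataGGACTGActgatggagt
Hjv, miR-455-3p, chr3:96529002-96529028 (plus strand): aaacattaaaGGACTGAgatatcgtaa
Bmpr1a, miR-455-5p, chr14:34411882-34411908 (minus strand): acttgaataaGCACATAaagacacctt
Acvr2b, miR-455-5p, chr9:119434119-119434145 (plus strand): actggacttgGGCACATttggagcaac
Chrdl1, miR-455-5p, chrX:143287452-143287478 (minus strand): tggttatagaGCACATAcctagcatat
Chrdl1, miR-455-5p, chrX:143298673-143298699 (minus strand): gccattcctaGGCACATgaatttatca
Bmp2 and Bmpr2 held only 6 matching bases for the 5p form, and Bmp4, Bmp6 and Acvr1 held no match to either seed. The annotated 3′UTR of Bmp4 is short, at 339 bases. A match is a description of sequence, and binding at these sites was not measured.

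The exact normalisation of the deposited values was not given. They behaved as abundances divided by transcript length and are called abundances here, and the comparisons of level between genes, and the shares, rest on that reading. They correspond to an estimated 27700000, 29400000 and 30600000 fragments in null libraries 1 to 3 and 37700000, 26900000 and 32600000 in WT libraries 1 to 3. Fold changes and p-values below are from limma on log2(abundance + 0.5) over the 17736 genes with a mean abundance of at least 0.1, and adjusted p is by Benjamini-Hochberg over all of those genes. For genes of low abundance the added 0.5 makes a log2 fold change smaller than the ratio of means.

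None of the 10 BMP genes passed adjusted p 0.05, a threshold passed by 4 of the 17736 genes (0.0226%), and none had an unadjusted p under 0.05 (5.36% of genes). None met a 2-fold criterion of a ratio of means above 2 in either direction with an unadjusted p under 0.05 (0.987% of genes higher and 1.18% lower), and none had every null library below every WT library (5.32% of genes). A higher mean in null libraries was found for 8 of the 10, namely Bmp2, Bmp4, Bmp6, Bmpr1a, Acvr1, Bmpr2, Hjv and Chrdl1, and for 52.8% of all genes tested. Acvr2a and Acvr2b had a lower mean. The median log2 fold change of the 10 genes was 0.26, against 0.015 over all genes tested. Bmp4 and Hjv are on a list that the study drew up from these same samples, by fold and significance. The direction of Bmp4 and Hjv is thus not independent evidence. Bmpr1a was added to that list for its predicted miR-455 sites. With limma as used here, the unadjusted p was 0.062 for Bmp4 and 0.172 for Hjv, so the study's call of significance was not repeated. In dissected tissue, a change in the share of cells of a type and a change in RNA per cell cannot be told apart.

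**Figure D1:**
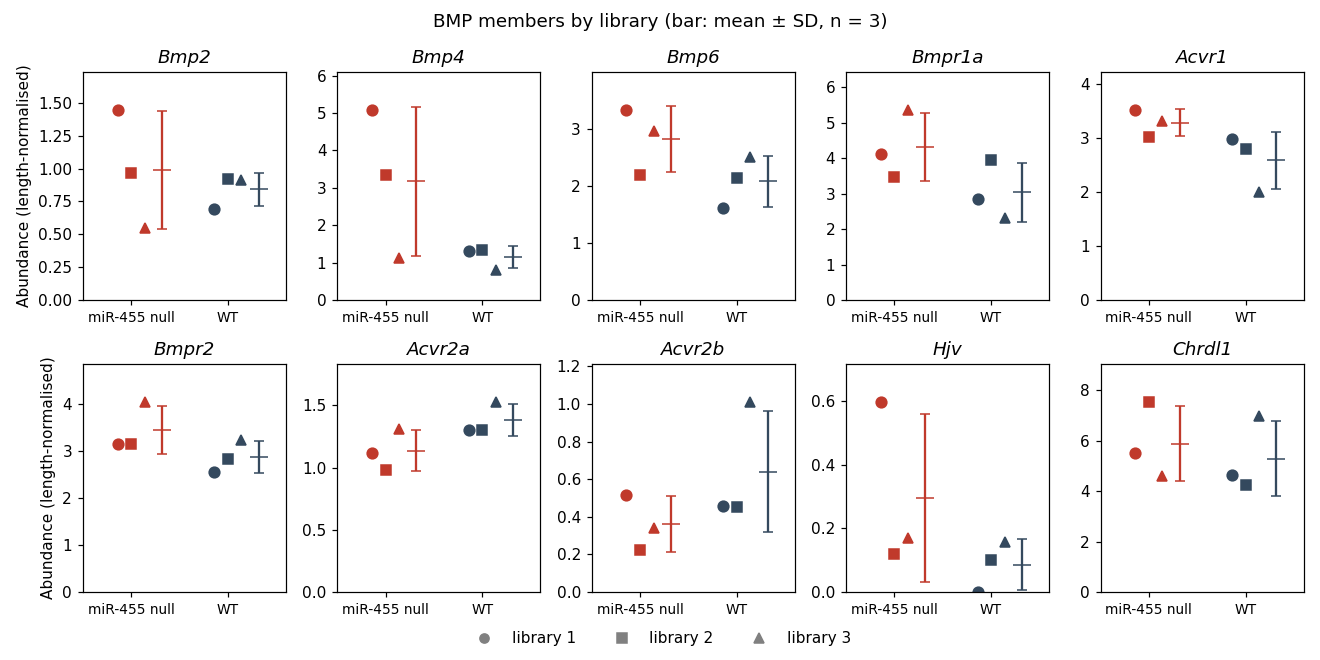
Length-normalised abundance (vertical axes, each from 0) of the 10 BMP genes in each miR-455 null and WT library, with the mean ± SD of each group (n = 3) beside the points. Acvr1 is the only one of the 10 in which all null libraries lie above all WT libraries, and for Bmp4 and Hjv null library 1 is the highest of the 6.

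Among the ligands, Bmp4 had the largest fold change and the largest spread between null libraries. Bmp4 (chr14:46383520-46390669, minus strand), a ligand that induces cartilage and bone formation, had an abundance of 5.08, 3.35 and 1.11 in null libraries 1 to 3, against 1.31, 1.33 and 0.811 in WT libraries 1 to 3. Null libraries 1 and 2 were above every WT library, and null library 3 lay within the WT range. Bmp4 averaged 3.18 ± 1.99 in null and 1.15 ± 0.296 in WT libraries (SD, n = 3 each), a ratio of 2.76. Its log2 fold change was 1.00 ± 0.45 (SE, 95% interval −0.07 to 2.06), with an adjusted p of 0.802 by limma. These levels rest on an estimated 380 fragments in the null libraries together and 153 in the WT libraries. Leaving out null library 1 gave a log2 fold change of 0.61 and a ratio of 1.94, and leaving out null library 3 gave 1.51 and 3.66. The lowest adjusted p for Bmp4 under any alternative setting was 0.253 by limma, with library weights estimated gene by gene.

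Bmp6 (chr13:38345107-38500302, plus strand), a ligand that also reports iron load to the liver, had an abundance of 3.33, 2.19 and 2.95 in null libraries, against 1.61, 2.13 and 2.50 in WT libraries. Each null library was above the WT mean, but the ranges overlapped, since null library 2 was below WT library 3. On the log2 scale Bmp6 differed by 0.37 ± 0.21 (SE), with an adjusted p of 0.802 by limma. Bmp2 (chr2:133552159-133562885, plus strand), a strong inducer of chondrocyte and osteoblast differentiation, had an abundance of 1.45, 0.965 and 0.550 in null libraries and of 0.696, 0.920 and 0.913 in WT libraries. The null libraries held both the highest and the lowest value of the 6. For Bmp2 the log2 fold change was 0.11 ± 0.26 (SE, adjusted p = 0.926 by limma), and it was −0.11 without null library 1.

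The 3 ligands together were at 9.86, 6.50 and 4.61 in null libraries, against 3.61, 4.38 and 4.22 in WT libraries. The null libraries were all above the WT libraries (6.99 ± 2.66 and 4.07 ± 0.406, SD, n = 3 each). Bmp4, which the study had selected by fold on these same samples, is part of that sum, and Bmp2 and Bmp6 each overlapped between the groups. The separation of the ligand sum is thus not independent evidence. Bmp4 made up 51.6%, 51.5% and 24.1% of that sum in null libraries and 36.3%, 30.4% and 19.2% in WT libraries. Bmp2 made up 14.7%, 14.8% and 11.9% in null libraries, below its 19.3%, 20.97% and 21.6% in WT libraries. Null libraries 1 and 2 thus shared one ligand composition, in which Bmp4 was the most abundant of the 3, whereas Bmp6 was the most abundant in null library 3 and in every WT library. These sums and shares were looked at after the values were seen and carry no test, and with 3 libraries against 3 an exact permutation test could not give a p below 0.1. The shares are also tied to each other, so a higher Bmp4 by itself lowers the share of Bmp2.

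**Figure D2:**
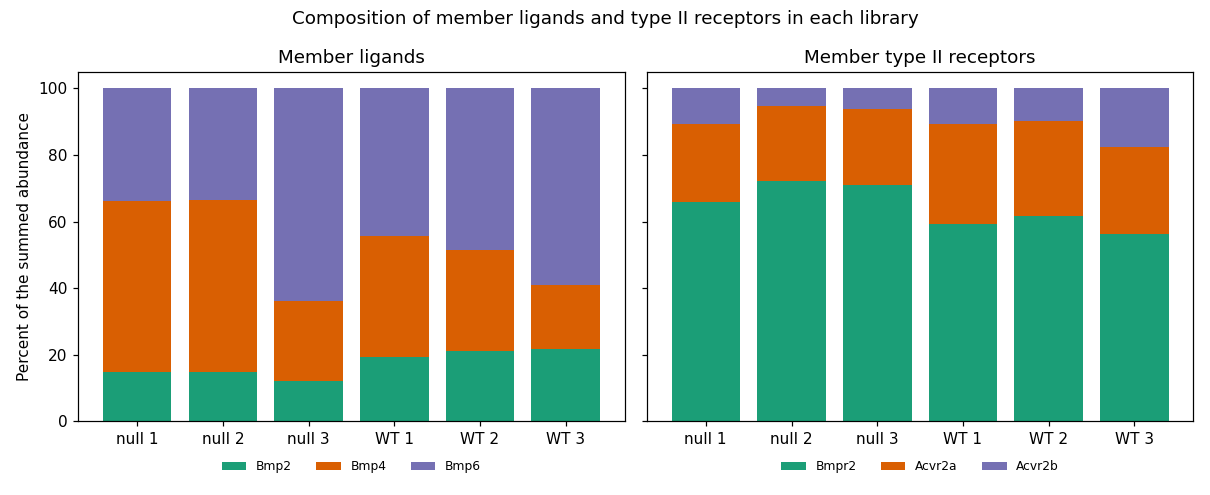
Share of each gene in the summed abundance of the 3 ligands (left) and of the 3 type II receptors (right), in percent, for each null and WT library. Bmp4 holds 51.6% and 51.5% of the ligand sum in null libraries 1 and 2, and Bmpr2 holds a larger share of the type II receptors in each null library than in any WT library.

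Of the type I receptors, Acvr1 was the only BMP gene of the 10 whose groups did not overlap. Across all genes tested, 5.9% had every null library above every WT library. Acvr1 (chr2:58388644-58567157, minus strand), the receptor also called ALK2, whose activating mutations cause heterotopic bone formation in people, had an abundance of 3.53, 3.03 and 3.32 in null libraries, against 2.98, 2.81 and 2.00 in WT libraries. The gap between the lowest null and the highest WT library was small beside the spread within WT. Acvr1 averaged 3.29 ± 0.251 in null and 2.59 ± 0.526 in WT libraries (SD, n = 3 each), and its log2 fold change was 0.31 ± 0.18 (SE, adjusted p = 0.802 by limma). It was 0.16 without WT library 3, the lowest of the 6.

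Bmpr1a (chr14:34410734-34503341, minus strand), also called ALK3 and required for chondrogenesis, carried 1 match of 7 bases to each miR-455 seed, as printed above. The study counts more predicted miR-455-3p seed sites in Bmpr1a than were found here. It saw no effect of the miR-455-3p mimic or inhibitor on BMPR1A in human osteosarcoma cells. The abundance of Bmpr1a here is given next. Its abundance was 4.12, 3.46 and 5.36 in null libraries, against 2.85, 3.95 and 2.32 in WT libraries. Null libraries 1 and 3 were above every WT library, and null library 2 was below WT library 2. Bmpr1a averaged 4.31 ± 0.962 in null and 3.04 ± 0.830 in WT libraries (SD, n = 3 each), a ratio of 1.42. That is a log2 fold change of 0.45 ± 0.23 (SE), with an adjusted p of 0.802 by limma. Leaving out 1 library at a time moved it between 0.30, without null library 3, and 0.63, without WT library 2. The proportions of the 2 type I receptors overlapped between the groups, with Bmpr1a at 53.9%, 53.4% and 61.8% of their sum in null libraries and 48.9%, 58.4% and 53.8% in WT libraries.

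Among the type II receptors the signs were mixed. Bmpr2 (chr1:59763400-59879014, plus strand), the receptor specific for BMPs, had an abundance of 3.15, 3.15 and 4.05 in null libraries, against 2.56, 2.83 and 3.25 in WT libraries. Only WT library 3 reached into the null range. Bmpr2 had a log2 fold change of 0.22 ± 0.17 (SE, adjusted p = 0.802 by limma).

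Acvr2a and Acvr2b bind activins as well as BMPs, and both carried a 7-base seed match, Acvr2a for miR-455-3p and Acvr2b for miR-455-5p. Acvr2a (chr2:48814109-48903269, plus strand) had an abundance of 1.12, 0.982 and 1.31 in null libraries, against 1.31, 1.30 and 1.53 in WT libraries. All 3 null libraries were below the WT mean, with null library 3 just inside the WT range. The log2 fold change of Acvr2a was −0.20 ± 0.17 (SE, adjusted p = 0.802 by limma). Acvr2b (chr9:119402118-119434995, plus strand) had an abundance of 0.517, 0.224 and 0.343 in null libraries, against 0.459, 0.451 and 1.01 in WT libraries. WT library 3 stood well above the other 5 libraries, and null library 1 was slightly above the other two WT libraries. The log2 fold change of Acvr2b was −0.38 ± 0.25 (SE, adjusted p = 0.802 by limma), and it was −0.16 without WT library 3.

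The summed level of the type II receptors overlapped between the groups, at 4.95 ± 0.689 in null and 4.90 ± 0.779 in WT libraries (SD, n = 3 each), whereas the shares of Bmpr2 and Acvr2a did not. Bmpr2 made up 65.8%, 72.3% and 71.0% of the type II sum in null libraries, against 59.2%, 61.7% and 56.1% in WT libraries. Acvr2a made up 23.3%, 22.5% and 23.0% in null libraries, against 30.2%, 28.4% and 26.4% in WT libraries. Bmpr2 thus held more and Acvr2a less of the type II sum in each null library than in any WT library, while the share of Acvr2b overlapped. As shares of one sum these values are tied to each other, they are 3 of 8 shares computed over the ligands and receptors, and they carry no test.

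Hjv (hemojuvelin, chr3:96525172-96529210, plus strand), a membrane-anchored BMP co-receptor of the repulsive guidance molecule family that controls hepcidin in the liver and is expressed in skeletal muscle, was the lowest of the 10 genes by mean in both groups, although above Acvr2b in null library 1. Its abundance was 0.597, 0.119 and 0.169 in null libraries, and it was 0, 0.0999 and 0.157 in WT libraries. Null library 1 stood apart from the other 5, and null libraries 2 and 3 were close to the 2 WT libraries in which Hjv was detected. The estimated fragments behind these values were 23.1, 4.72 and 6.61 in null libraries, against 0, 3.83 and 6.72 in WT libraries, so that most of the Hjv signal came from 1 library. Hjv averaged 0.295 ± 0.263 in null and 0.0857 ± 0.0795 in WT libraries (SD, n = 3 each), a ratio of 3.44, with a log2 fold change of 0.40 ± 0.26 (SE, adjusted p = 0.802 by limma). The ratio was 1.68 without null library 1, 2.29 without WT library 1 and 5.90 without WT library 3. A ratio of means above 2 was found for 4.75% of all genes tested, and among the 10 BMP genes for Bmp4 and Hjv, both of which had been selected by fold.

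Chrdl1 (chrX:143285674-143394262, minus strand), a secreted chordin-like protein that binds BMP ligands and keeps them from their receptors, was the most abundant of the 10 by mean in both groups. Its abundance was 5.54, 7.54 and 4.60 in null libraries, against 4.65, 4.23 and 6.98 in WT libraries. The ranges overlapped over most of their length, with 1 high library in each group. The log2 fold change was 0.15 ± 0.24 (SE, 95% interval −0.43 to 0.73, adjusted p = 0.887 by limma), and it was −0.03 without null library 2. Its gene carried 2 of the 7-base matches to miR-455-5p printed above, each listed from the 3′UTR of a different annotated transcript.

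**Figure D3:**
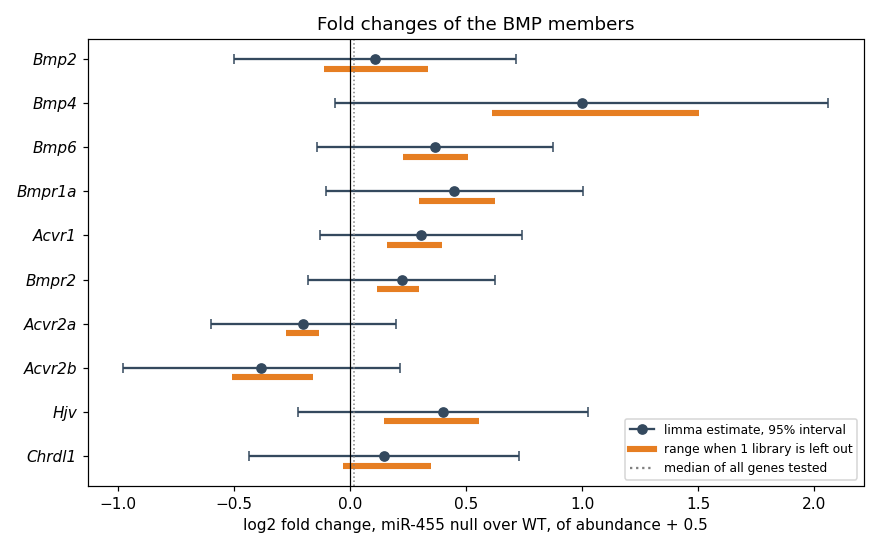
Log2 fold change, miR-455 null over WT, of abundance + 0.5 for the 10 BMP genes, with the 95% interval of limma (dark lines) and the range of the estimate when 1 library at a time is left out (orange bars). Every 95% interval includes 0, and the estimate changes sign on leaving out a library only for Bmp2 and Chrdl1.

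The 10 genes spanned a wide range of levels. In null libraries the order by mean was Chrdl1 at 5.89, Bmpr1a at 4.31, Bmpr2 at 3.45, Acvr1 at 3.29, Bmp4 at 3.18, Bmp6 at 2.82, Acvr2a at 1.14, Bmp2 at 0.987, Acvr2b at 0.362 and Hjv at 0.295. In that order neighbouring genes overlapped in range, apart from the step between Bmp6 and Acvr2a and that between Bmp2 and Acvr2b. In WT libraries the order was Chrdl1 at 5.29, Bmpr1a at 3.04, Bmpr2 at 2.88, Acvr1 at 2.59, Bmp6 at 2.08, Acvr2a at 1.38, Bmp4 at 1.15, Bmp2 at 0.843, Acvr2b at 0.640 and Hjv at 0.0857. There the ranges were separate between Chrdl1 and Bmpr1a, between Bmp6 and Acvr2a, and between Acvr2b and Hjv. Bmp4 was the gene that changed place, standing above Bmp6 by mean in null libraries and below Bmp6 and Acvr2a in WT libraries. The spread among null libraries was widest for Hjv, with a coefficient of variation of 89.1%, and for Bmp4, at 62.6%, and narrowest for Acvr1, at 7.64%, while the coefficients among WT libraries were 92.8%, 25.7% and 20.3% for the same genes in that order.

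Several marker lists of other tissues had their highest sum in null library 1, as had Bmp2, Bmp4, Bmp6, Acvr1 and Hjv. By contrast, Bmpr1a and Bmpr2 were highest in null library 3, Chrdl1 in null library 2, and Acvr2a and Acvr2b in WT library 3. All 7 genes of a superficial zone cartilage and synovium list had a higher mean in null. Their summed abundance was 665, 364 and 272 in null libraries, against 217 to 246 in WT libraries. Prg4 (lubricin) made up most of it, with 547, 295 and 216 in null libraries, against 170, 166 and 194 in WT libraries. Thbs4 and Htra1 also had every null library above every WT library, whereas Cilp, Cilp2, Abi3bp and Tppp3 overlapped between the groups. The library order of the summed list, null 1 first, null 2 second and null 3 near WT, was also that of Bmp4 in the null libraries. A chondrocyte list was at 219, 267 and 161 in null libraries, against 151 to 160 in WT libraries. It too was high in null libraries 1 and 2 and near WT in null library 3. The part of either list in the Bmp4 result was not tested. All 16 skeletal muscle genes had a higher mean in null. Their sum was 209, 83.7 and 106 in null libraries, against 61.3 to 77.2 in WT libraries, so that null library 1 was highest for muscle genes as it was for Hjv, and the part of muscle RNA in the Hjv result was not tested. Null library 1 was also the highest for the fibroblast list (146, 88.8 and 129.7 in null libraries, against 78.0 to 91.7 in WT libraries), the adipocyte list (246, 162 and 141 in null, against 143 to 232 in WT libraries) and the endothelium list (88.3, 50.4 and 54.8 in null, against 64.7 to 84.4 in WT libraries). Null library 1 thus stood high for several cell types, and these lists do not single out muscle beside Hjv.

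**Figure D4:**
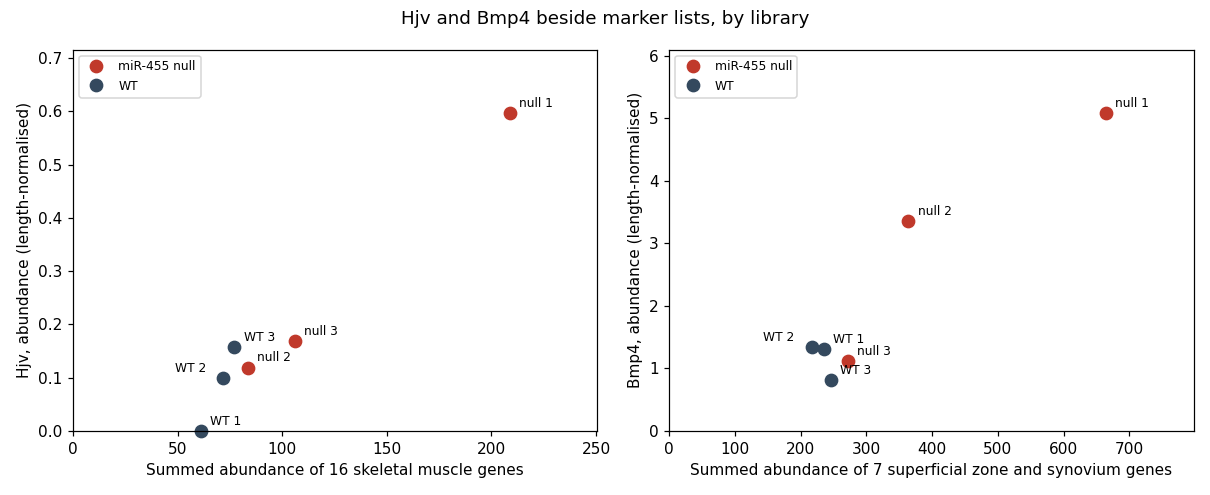
Abundance of Hjv against the summed abundance of 16 skeletal muscle genes (left) and abundance of Bmp4 against the summed abundance of 7 superficial zone and synovium genes (right), 1 point for each null and WT library. Null library 1 is the highest on both axes of both panels, and null library 2 is second on both axes of the right panel.

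The labelled cell type, the chondrocyte, was represented in all libraries, and none of its 17 listed markers was at 0 in all of them. The summed chondrocyte markers ran from 161 to 267 in null and from 151 to 160 in WT libraries, without overlap, and 16 of the 17 had a higher mean in null. Col2a1 was at 24.8, 63.8 and 31.1 in null libraries, against 21.6, 19.0 and 18.4 in WT libraries. Col2a1, Col9a1 and Epyc had been selected by the study by fold on these same samples. The separation of the chondrocyte sum is thus not independent evidence. Marrow and blood transcripts were far more abundant, with 112666 to 197480 for the erythroid list in null against 253735 to 306115 in WT libraries, and 76230 to 200900 for the neutrophil list in null against 80139 to 116837 in WT libraries. Osteoblast and osteocyte genes gave 642 to 1009 in null and 813 to 1082 in WT libraries. The part of these differences in the levels of the BMP genes was not tested. When abundances were rescaled to the same total outside the marrow, blood and muscle lists, the log2 fold change of Bmp4 was 1.01 and that of Bmpr1a 0.46.

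The rest of the pathway was read from lists of 56 other genes, of which 44 were abundant enough to be tested. None passed adjusted p 0.05 (lowest adjusted p = 0.802 by limma). Every null library was above every WT library for 4 of the 44, namely Bmp5, Rgma, Fstl1 and Pcsk6, against 5.9% of all genes tested. None had every null library below every WT library, against 5.32% of all genes. A log2 fold change above 0 was found in 37 of the 44, against 52.4% of all genes tested, with a median of 0.15. Leaving out 1 library at a time gave between 31, without null library 1, and 39, without null library 2. The pathway lists were chosen with earlier results of these data known, and their genes share libraries and tissue makeup. This count is thus not independent evidence of a difference in the pathway. At an unadjusted p under 0.05 by limma 4 were higher, namely Rgma, Fstl1, Pcsk6 and Tmprss6, and none were lower, where the shares over all genes were 2.92% higher and 2.44% lower. Fstl1 and Pcsk6 stayed under that p in all 18 alternatives run for each. Rgma did so in 9 of 16 and Tmprss6 in 11 of 16. Both Rgma and Tmprss6 were lost without null library 1, null library 2, WT library 1 or WT library 2. With 1 library left out, the log2 fold change of Rgma was lowest without WT library 3, at 0.39.

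Pcsk6 (PACE4), a proprotein convertase that cleaves BMP precursors, had an abundance of 15.8, 8.20 and 7.46 in null libraries, against 4.52, 6.07 and 3.86 in WT libraries. Every null library was above every WT library, and null library 1 was the highest. Pcsk6 had a log2 fold change of 0.99 ± 0.30 (SE, adjusted p = 0.802 by limma), and it was 0.67 without null library 1. The other convertases Furin, with 17.1, 20.9 and 29.6 in null and 19.2, 16.5 and 17.7 in WT libraries, and Pcsk7, with 9.77, 10.8 and 15.6 in null and 10.98, 11.4 and 12.2 in WT libraries, overlapped between groups.

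Fstl1, a secreted follistatin-like glycoprotein that reduces BMP signalling, had an abundance of 27.9, 21.4 and 22.4 in null libraries, against 11.9, 16.7 and 16.9 in WT libraries. The groups did not overlap. Fstl1 had a log2 fold change of 0.65 ± 0.18 (SE, adjusted p = 0.802 by limma), and it was 0.49 without WT library 1. Nbl1, another secreted BMP antagonist, had 21.2, 8.94 and 9.33 in null libraries, against 10.3, 8.29 and 5.96 in WT libraries, with 1 high null library and an overlap between the groups. Null library 1, the highest of the 6 for the superficial zone and synovium list, was also the highest for Pcsk6, Fstl1 and Nbl1, and the part of that tissue in these values was not tested.

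Rgma, a BMP co-receptor of the same family as Hjv, had an abundance of 0.625, 0.781 and 0.418 in null libraries, against 0.322, 0.356 and 0.153 in WT libraries. The groups did not overlap, at low abundance in both, and the log2 fold change was 0.51 ± 0.21 (SE, adjusted p = 0.802 by limma). The endothelial receptors Acvrl1 (ALK1) and Eng (endoglin) overlapped, Acvrl1 with 8.33, 22.7 and 40.1 in null and 18.9, 16.04 and 13.4 in WT libraries, and Eng with 12.3, 12.6 and 11.4 in null and 11.7, 15.6 and 8.53 in WT libraries. Acvrl1 thus had both its lowest and its highest value in null libraries. Its lowest was in null library 1, the library highest for the endothelium list, and the cell type behind its values was not tested.

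Of the other ligands, Bmp5 had an abundance of 2.19, 2.29 and 2.43 in null libraries, against 1.36, 1.94 and 1.97 in WT libraries. It was the only one of the 6 tested whose groups did not overlap, where 5.9% of all genes had every null library above every WT library. The log2 fold change of Bmp5 was 0.32 ± 0.18 (SE, adjusted p = 0.802 by limma). Bmp3, a ligand that opposes osteogenic BMPs, had 2.02, 1.24 and 1.39 in null libraries and 1.06, 1.80 and 1.68 in WT libraries. Its groups overlapped.

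Downstream of the receptors, 9 of the 10 SMAD and Id genes had a log2 fold change above 0, but with a median of 0.09, and none reached an unadjusted p under 0.05 by limma. Id2 was at 45.5, 54.4 and 80.4 in null libraries, against 49.3, 50.1 and 56.6 in WT libraries. Id3, a direct BMP target, was at 40.6, 31.4 and 33.1 in null libraries, against 22.7, 30.2 and 35.9 in WT libraries. Both overlapped between the groups, so no difference in these transcripts was found beyond the spread between libraries.

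Of the genes that act with Hjv in iron sensing, Tmprss6 (matriptase-2), the protease that cleaves hemojuvelin, had an abundance of 1.22, 1.12 and 0.344 in null libraries, against 0.0851, 0.295 and 0.407 in WT libraries. Null libraries 1 and 2 were above every WT library and null library 3 was within the WT range, the same arrangement as for Bmp4. The log2 fold change of Tmprss6 was 0.83 ± 0.33 (SE, adjusted p = 0.802 by limma). Tfr2, the second transferrin receptor, ran from 5.40 to 14.5 in null libraries, against 11.9 to 12.9 in WT libraries. Hfe, which binds transferrin receptors, had 5.16, 8.12 and 7.54 in null libraries, against 5.62, 6.74 and 5.77 in WT libraries. Neither passed the test, and the ranges of both overlapped.

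**Figure D5:**
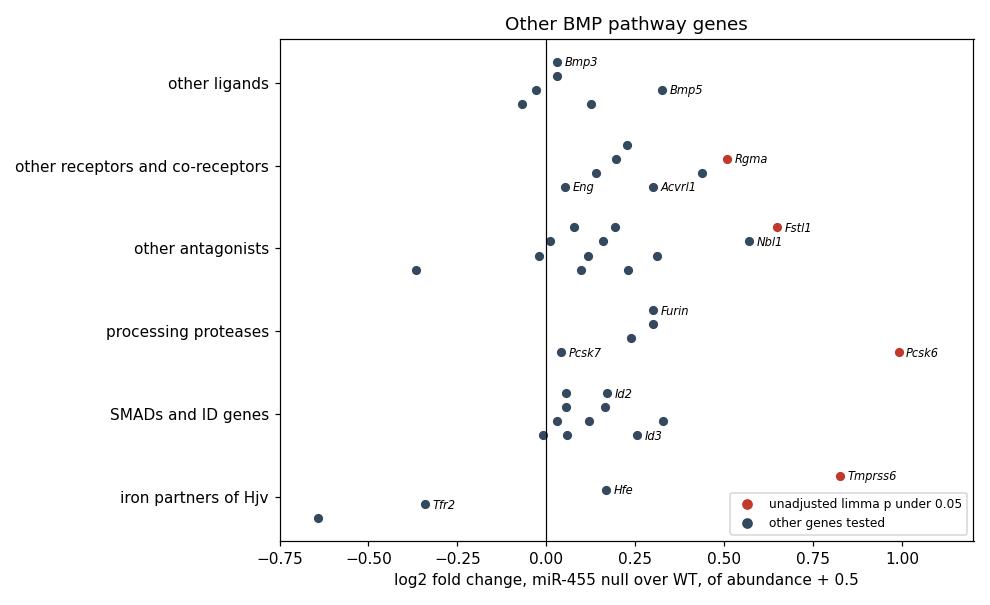
Log2 fold change, miR-455 null over WT, of abundance + 0.5 for the 44 other BMP pathway genes tested, by list. Points to the right of 0 are higher in null (37 of 44), and red marks the 4 with an unadjusted limma p under 0.05, none of which passed adjustment.

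The genes whose pattern over the 6 libraries was most like that of a BMP gene were picked by Pearson's r on log2(abundance + 0.5) among 11945 other protein-coding genes with a mean of at least 1 (11946 for Hjv). Among those closest to Bmp4 were Nol8 (r = 0.99), Cct4, Pusl1 and Itgad, and 19 genes had r above 0.95. Nol8, like Bmp4, was highest in null libraries 1 and 2, with 5.54, 4.96 and 4.23 in null libraries, against 4.40, 4.49 and 4.02 in WT libraries. The closest to Bmp6 were Arpin, Cog7, Errfi1, Loxl1 and Pls3, and those closest to Bmpr1a were Lrp6, a Wnt co-receptor, Gtpbp8, C9orf72, Crebl2 and Wdr13. The closest to Hjv were Htra4, Slc9a3r2, Aig1, Tgfb1i1 and Ccdc80, with 44 genes above 0.95. Htra4 shared with Hjv a single high library, with 20.4, 7.67 and 9.39 in null libraries, against 6.10, 7.46 and 8.32 in WT libraries. Those closest to Chrdl1 were Nrd1, Ttc8, Fkbp3, Itga2 and Utp23. With 6 libraries that share tissue makeup and scaling, these likenesses are descriptions and carry no test.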

How the data were processed

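Total RNA from knee cartilage was sequenced in 3 miR-455 null and 3 WT libraries. The submitters' processing notes name FastQC, Trim Galore, kallisto, sleuth and the mouse build mm10, without versions. The values deposited, called normalised counts by the authors, are a non-negative signal per gene that is not whole. Multiplied by transcript length, the low values of genes with 1 transcript of over 1000 bases fell within 0.15 of whole multiples of 1 fragment for 74.4% to 83.2% of values, against 30% if spread evenly, so they were treated as length-normalised abundances. The value of 1 fragment gave the estimated fragments, which use the longest coding transcript. The percent of reads that aligned, also deposited, was 83.3% to 92.6%.

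Symbols matched 35866 identifiers, and Hjv was matched through its older name in RefSeq. Positions and 3′UTRs came from GENCODE M21 for mm10. Abundances were tested on the scale log2(abundance + 0.5) by limma 3.58.1 in R 4.3.3, two-sided, with genotype alone in the model and a trended prior, for genes with a mean of at least 0.1. The files held another unit than raw counts, and no count model was used. The 10 genes, the pathway lists and the marker lists were chosen with earlier results of these data known. Beside the 10 genes, named genes were those of the other pathway lists at an unadjusted p under 0.05 and the 2 most abundant of each list, and the 5 genes most like each of 5 BMP genes. Among these most alike genes, 1 is not reported here.

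The procedure was tested on simulated data, drawn gene by gene from the means and spread of these libraries. At adjusted p under 0.05 by limma it recovered 41.8% of 2-fold, 77.6% of 4-fold and 80.3% of 8-fold changes. A gene that did not pass is thus not shown to be unchanged. No libraries held identical values, with median absolute log2 differences of 0.158 to 0.357 between libraries. Alternatives were other pseudocounts, filters, scalings, variance priors, a block for replicate number, library weights and each library left out. Counts over the other pathway genes under these alternatives were added after seeing the data. Figures were drawn with matplotlib 3.10.9.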

Additional observations from a re-analysis of the deposited data

How the results depend on the processing

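Of 168 values of the 10 BMP genes under the alternatives, 166 kept their direction and their side of the adjusted threshold, and none newly passed it. The exceptions in direction were Bmp2 without null library 1 (log2 fold change −0.11) and Chrdl1 without null library 2 (−0.0311), where leaving out 1 library gave up to 0.33 and 0.35. Of 264 values of the other named pathway genes 255 did so. The sign turned for Bmp3 with library weights gene by gene (−0.0943), without null library 1 (−0.13) and without WT library 1 (−0.14), for Pcsk7 with those weights (−0.0292) and without null library 3 (−0.15), for Acvrl1 (−0.20), Id2 (−0.0595) and Tfr2 (0.0440) without null library 3, and for Eng without WT library 3 (−0.16). At the other end, leaving out 1 library gave 0.14 for Bmp3, 0.17 for Pcsk7, 0.90 for Acvrl1, 0.35 for Id2, −0.63 for Tfr2 and 0.26 for Eng. The cause was not tested.

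Genes past adjusted p 0.05 by limma numbered 4, against 2 with no abundance filter, 1 where 3 libraries had to reach an abundance of 5, and 1 with the replicate number as a block. Genes at an unadjusted p under 0.05 numbered 951, against 451 with that minimum and 2601 with library weights gene by gene. Genes past 2-fold with an unadjusted p under 0.05 numbered 385, against 172 with a mean of at least 1, 46 with the minimum of 5 and 667 with the weights. The stricter filters tested fewer genes, 12813 with a mean of at least 1 and 9098 with the minimum of 5, against 17736. They also removed genes of low abundance, and the part of each in the smaller counts was not tested. The minimum of 5 removed all of the 10 BMP genes except Chrdl1. Leaving out 1 library at a time gave 2 to 13 genes past adjusted p, 659 to 2656 at an unadjusted p under 0.05, 350 to 628 past 2-fold, and 7 to 8 of the BMP genes higher in null. The counts of 2656 and 628 came without null library 1, which also gave 11 past adjusted p, and the 13 came without WT library 3.

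Same-numbered libraries did not deviate together (r = −0.10, 0.04 and −0.02), and pairs of unlike number had r from −0.07 to 0.07. These values show no pairing by number, but with 3 libraries in each group they cannot exclude it. With the replicate block the log2 fold change of Bmp4 was 1.00 with an adjusted p of 0.859 by limma. Over 17 alternatives Bmp4 had an unadjusted p under 0.05 in 4 (the block, equal totals, gene-by-gene weights, and null library 3 left out), and its lowest adjusted p by limma was 0.253. Scaling each library to the same total moved the median log2 fold change of all genes to 0.11, and that of Bmp4 to 1.09. The estimated fragments limit what can be said of Hjv, which had 34.4 in the null libraries together and 10.6 in the WT libraries, and of Acvr2b, which had 68.7 and 136.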
